A study of Mus musculus with 2 samples.

Results

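Transcripts of 10 Ets-domain transcription factors, Spib, Spi1, Elf3, Ehf, Elf1, Ets1, Ets2, Elk3, Etv4 and Etv5, were followed in mouse small-intestinal organoids cultured with or without RankL. They were found as the non-control array probes whose RefSeq accession maps to these symbols. This gave 17 probes of 41174, and 10 genes of 18337 with a symbol. The organoids, epithelial structures grown from crypts, came from wild-type mice and were kept in medium with EGF, Noggin and R-spondin in both groups. Treated organoids received recombinant mouse RankL, a cytokine of the tumour necrosis factor family, within a range of 50 to 200 ng/ml, and medium was renewed at days 2 and 5. The sources used here do not give the dose or harvest time of these RNAs, the strain of the mice, or how many mice or cultures were used. The series' title concerns M cells, which sample antigens over Peyer's patches, and their need for Spib.

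Ets factors share a winged helix-turn-helix domain that binds DNA around the core GGAA, and they differ in the partners and signals that direct them. Spib and Spi1 (PU.1) form the SPI branch, best known from B cells, dendritic cells and macrophages, and Spib is also required for M cell maturation. Elf3 and Ehf belong to the epithelium-specific ESE branch, Ets1 and Ets2 are effectors of Ras and MAP kinase signalling, Elk3 is a ternary complex factor that acts with serum response factor, and Etv4 and Etv5 form part of the PEA3 branch, whose transcription follows FGF and ERK signalling. RankL binds its receptor RANK and activates NF-kB.

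The RNA pair was hybridised to 2 dual-colour arrays on 1 slide. RankL RNA carried Cy3 on array 1 and Cy5 on array 2, the dye swap. The arrays are therefore 1 replicate, no test was made, and each ± is the SD of the 2 arrays, which leaves out the spread between cultures. Ratios are log2 of RankL over untreated, so 1 is 2-fold. Signals are the deposited median brightness of a spot, before background correction. Typical local backgrounds were 23 in Cy3 and 113 to 114 in Cy5, so the raw signals of the dyes cannot be set against each other directly. A probe counted as measured if at least 1 of the RNAs was called well above background by the scanner software on array 1 and again on array 2. By this rule 11 of the 17 probes and 8 of the 10 genes were measured, 7 of them in both RNAs, while Spi1 and Etv5 were not. The number of arrays and of RNAs limits the precision, and a change in the number of cells that make a transcript cannot be told apart from a change in RNA per cell.

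Spib stood apart from the other members. It was 18.5-fold higher with RankL, while the other 6 members measured in both RNAs lay between -0.75 and 0.42 on the log2 scale. Elk3 was dim in untreated RNA, so no firm fold holds for it. Against that dim signal it read 1.67-fold by the brighter probe and 1.14-fold by the second. By the rule of at least 2-fold on the mean and at least 0.5 on the log2 scale in the same direction on each array, 1 of 8 measured members was higher, beside 5.47% of the 12877 genes measured, and 0 of 8 were lower, beside 2.5% (7.97% either way). Here and below, genes include array accessions without a symbol. Of 9 alternatives, those of probe filter or probe choice could not alter Spib, which has 1 probe, above background in both RNAs. In each of the 9 Spib met the rule again and 0 members were lower. The shares of all genes called higher and lower were then 6.87% and 3.32% with a smaller background offset of 16, 5.02% and 2.45% without background correction, 4.74% and 3.02% with median centring, and 8.92% and 6.07% with the scanner software's own ratios. With dim probes included they were 2.19% and 1%, the main setting's counts of 704 and 322 over 32196 genes in place of 12877. They were 4.65% and 2.47% with probes above background in both RNAs (11486 genes), and 4.87% and 2.31% with the median over probes. On array 2 alone (14244 genes) they were 5.15% and 2.58%, and on array 1 alone (13248 genes) 5.51% and 2.49%. The median ratio of the 8 was 0.13, against 0.0086 over all measured genes. In order of the ratios as read, Spib was followed by Elk3, whose place rests on a dim untreated signal, and by Elf1, Ets2, Ets1, Etv4, Ehf and Elf3. Gaps of 0.046 between Ets1 and Etv4, and of 0.075 between Ehf and Elf3, were smaller than the SDs of the genes they separate.

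**Figure D1:**
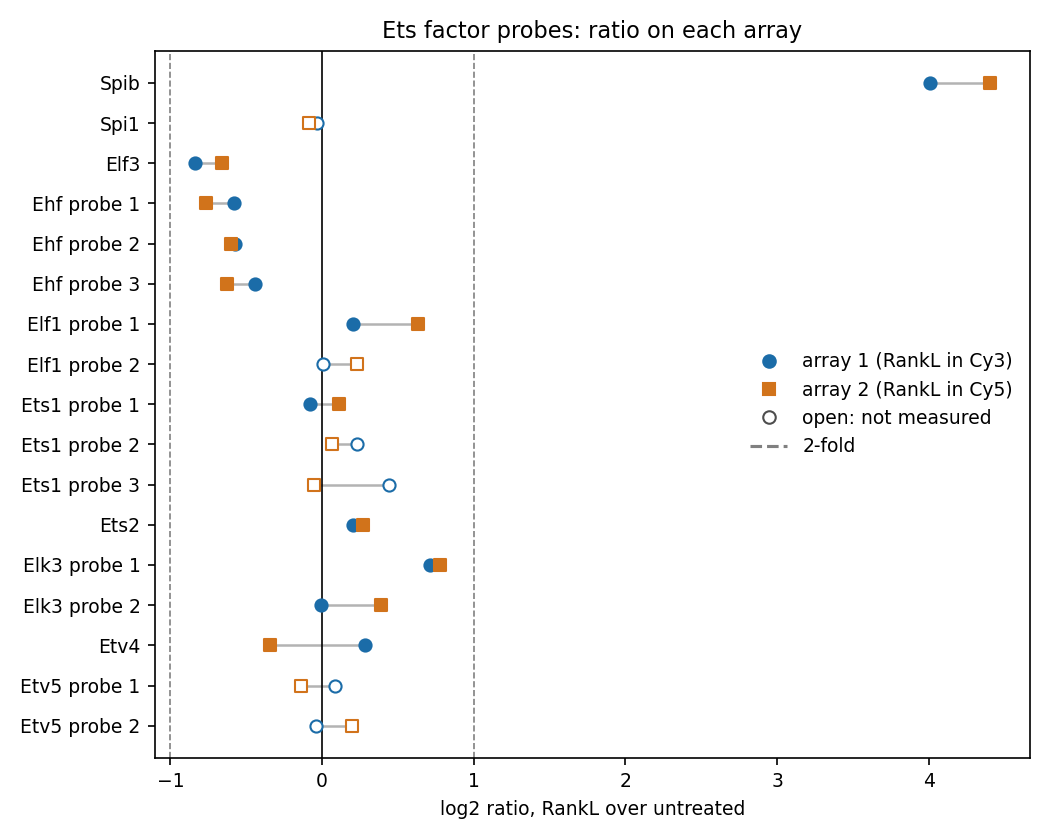
Log2 ratio of RankL over untreated (horizontal axis) for each of the 17 probes (rows), with circles for array 1 and squares for array 2, open symbols for probes that were not measured, and dashed lines at 2-fold. Probes of a gene are numbered from the brightest. Spib lies above 4 on both arrays, and the 8 readings of the 4 Elf3 and Ehf probes lie below 0.

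The promoters of Spib and Elf3 are shown because these genes had the highest and the lowest ratio of the members and because RANK signals through NF-kB. Each is the 250 bases before the start of transcription, from RefSeq on GRCm38.p6, minus strand, written 5′ to 3′, with matches to the NF-kB consensus in capitals. The Spib promoter is chr7:44532072-44532321 and the Elf3 promoter is chr1:135258473-135258722.
Spib: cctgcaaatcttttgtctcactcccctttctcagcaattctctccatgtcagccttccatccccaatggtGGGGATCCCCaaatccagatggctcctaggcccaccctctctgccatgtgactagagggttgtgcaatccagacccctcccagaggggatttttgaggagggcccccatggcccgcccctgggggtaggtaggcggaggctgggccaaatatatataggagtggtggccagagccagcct
Elf3: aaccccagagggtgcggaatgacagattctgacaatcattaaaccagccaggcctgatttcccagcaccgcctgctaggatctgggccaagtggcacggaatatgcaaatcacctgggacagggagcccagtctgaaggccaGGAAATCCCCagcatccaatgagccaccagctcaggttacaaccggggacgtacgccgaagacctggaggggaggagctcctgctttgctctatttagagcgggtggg
Each held 1 match, GGGGATCCCC in Spib at 180 to 171 bases before the start and GGAAATCCCC in Elf3 at 108 to 99 bases before it. Both strands were searched for the 10-base consensus, and a palindrome was counted once. A match was present in 3.9% of 32851 mouse promoters of this length. RefSeq promoters were at hand for 6 members (8 promoters), and the 6 promoters of Ets2, Elk3, Elf1 and Etv5 held no match. The Ets core GGAA occurred 1 time in the Spib promoter and 4 times in that of Elf3, and in 93.4% of all promoters. These are matches of letters and not sites of binding. Ehf, Spi1, Ets1 and Etv4 had no promoter at hand. Whether either match bears on the ratio of its gene was not tested.

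In the SPI branch, Spib was read by a single probe. Its signal was 9198 in RankL RNA and 776 in untreated RNA on array 1, and 10846 and 497 on array 2. Untreated organoids were well above background on both arrays, so the transcript was detected without RankL and its ratio is measured on both sides. The log2 ratios were 4.01 and 4.40, with a mean of 4.21 ± 0.28. This was rank 26 of 12877 measured genes, and rank 19 of the 11478 that were well above background in both RNAs. The 500 measured genes closest in signal had a median SD between arrays of 0.16 and a 90th percentile of 0.40, so the difference was larger than the technical scatter. Spi1, the nearest relative of Spib, had signals of 45.5 and 126 for RankL and untreated RNA on array 1 and 119.5 and 37 on array 2. These lay close to local backgrounds of 23 and 106, and of 114 and 23. Spi1 was not well above background in either RNA, and no fold is given for it. Its readings of -0.032 and -0.085 describe background. Spic, the remaining gene of the branch, was not measured by either of its probes.

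Lists of marker genes were set beside Spib and Spi1, since B cells and myeloid cells are their best-known sources. All 6 epithelial markers, Epcam, Cdh1, Krt8, Krt18, Vil1 and Cdx2, were above background in both RNAs, with summed normalized signals of 112676 to 113397 with RankL and 110790 to 133253 without. None of them met the 2-fold rule, and Krt18 read -0.92 ± 0.29 and Vil1 0.81 ± 0.075, about as far from 0 as Elf3 and Ehf, while Epcam read 0.15, Krt8 0.21, Cdh1 -0.23 and Cdx2 -0.29. The part of this spread in the Elf3 and Ehf values was not tested. Of 6 B cell markers reported here only Cd79b was measured, at 1.80 ± 0.040, and Cd79a, Ms4a1, Cd22, Blk and Pax5 were not. The summed signal of these 6 was 944 to 958 with RankL and 516 to 523 in untreated RNA. Sums in this paragraph include the markers that were not measured, and each signal holds the background offset. Of 9 myeloid markers with a probe, Cd14 read 1.21 ± 0.22 and Fcer1g -0.014 ± 0.25, while Ptprc, Csf1r, Itgam, Adgre1, Lyz2, Tyrobp and Cx3cr1 were not measured. Their sum was 1124 to 1198 with RankL and 850 to 905 without. Siglech and Ccr9 of the plasmacytoid dendritic cell list were not measured, and Bst2 and Tcf4 read 0.47 and 0.18, with list sums of 1020 to 1096 and 797 to 847. No T cell or endothelial marker with a probe was measured, and of the fibroblast markers only Col1a2 was, at 0.17. The part of Cd79b-expressing or Cd14-expressing cells in the Spib value was not tested.

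**Figure D2:**
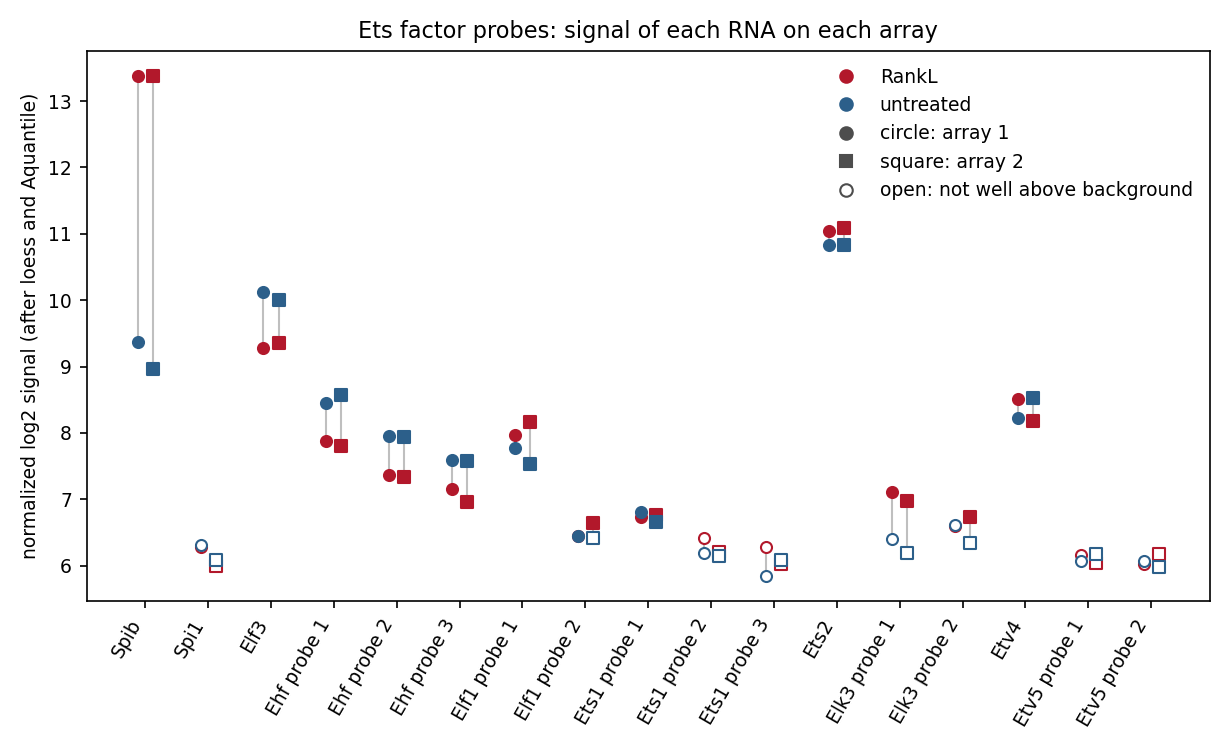
Log2 signal of each RNA after loess and Aquantile normalization (vertical axis) for the 17 probes, with RankL in red and untreated in blue, circles for array 1, squares for array 2, and open symbols where the signal was not well above background. Both RNAs are filled for Spib, only the RankL signal is filled on both arrays for the Elk3 probes, and Spi1 and Etv5 are open throughout. Levels of different probes are not comparable.

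The ESE branch read below 0 on every probe of its measured members. Elf3, which drives differentiation of the intestinal epithelium, had signals of 527 with RankL and 1231 without on array 1, and of 716 and 1038 on array 2. Its ratios of -0.84 and -0.66 gave a mean of -0.75 ± 0.13, or 1.68-fold lower. Of all measured genes 4.22% had a lower ratio, and of the 500 genes closest in signal 7.6%. Ehf, a relative of Elf3 that is expressed in glandular and intestinal epithelium, was read by 3 probes, all measured in both RNAs.

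Its brightest probe had signals of 184 with RankL and 422.5 without on array 1, and of 278 and 362 on array 2. The second had 120.5 and 310.0 on array 1, and 220.0 and 221 on array 2. The third had 100 and 262 on array 1, and 177 and 163 on array 2. After dye normalization the untreated signal was the higher for each probe on each array. Mean ratios were -0.67 ± 0.13, -0.59 ± 0.017 and -0.54 ± 0.13, a range of 0.14 over the 3 probes. Ehf by its brightest probe was 1.60-fold lower, with 5.34% of all genes and 8.4% of the 500 closest in signal below it. Neither gene reached 2-fold in the main setting. At 1.5-fold both met the rule, as 2 of 8 members lower beside 7.25% of all genes, with Spib and Elk3 as 2 of 8 higher beside 10.8%. Elk3, dim in untreated RNA on both arrays, counts there by its brighter probe only, and its second probe read 0.19. With the scanner software's own ratios Elf3 read -0.91, and the Ehf probes read -0.91, -0.97 and -1.06, from the brightest to the dimmest. The directions of Elf3 and Ehf held in all 9 alternatives. The probe filters could not change either gene, and the median over probes could not change Elf3, which has 1 probe. Elf5, the third ESE gene, was not measured. Spdef, the goblet cell factor of the neighbouring PDEF branch, was at -0.37 ± 0.088 and ranged from -0.67 to -0.30 over the alternatives.

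Elf1 belongs to the ELF branch, whose members act in lymphoid and many other cells. Its brighter probe had signals of 203.5 with RankL and 290.0 without on array 1, and of 354.5 and 165 on array 2. The ratios were 0.20 and 0.63, with a mean of 0.42 ± 0.30, so the 2 arrays disagreed by about as much as the ratio itself. A second probe, with 57 and 148 on array 1 and 152 and 54 on array 2, was above background only in Cy5, that is in 1 RNA on each array, so it was not measured, and it read 0.12. Of the other ELF genes, Elf2 was at 0.17 ± 0.22 and Elf4 was not measured.

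Ets1 and Ets2 did not meet the rule. Ets2, with its single probe, was among the bright members, at 1814 with RankL and 2024 without on array 1, and 2282 and 1870 on array 2. Its ratios of 0.21 and 0.27 agreed closely, with a mean of 0.24 ± 0.044. Its mean was 0.094 when arrays were centred on their median without loess. Ets1 was measured by 1 of 3 probes, with signals of 67 and 158 on array 1 and 159 and 72 on array 2. Its ratios of -0.078 and 0.11 had opposite signs and a mean of 0.015 ± 0.13. The other Ets1 probes had 47 and 140.5, and 42 and 120.0, on array 1, and 134 and 39, and 129 and 38, on array 2. They were not well above background in either RNA.

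Elk3, a ternary complex factor that represses until it is phosphorylated, was the member whose reading depended most on its probe and on the processing. Its brighter probe had signals of 102 with RankL and 132 without on array 1, and of 177 and 44 on array 2. Local backgrounds were 23 and 106 on array 1 and 108 and 23 on array 2. RankL RNA was well above background on both arrays and untreated RNA on neither. For this probe no firm fold holds. Against the dim untreated signal it read 1.67-fold higher in the main setting, with log2 values of 0.71 and 0.77. The second probe, with 65 and 148 on array 1 and 160.0 and 54 on array 2, was dim in untreated RNA too. Its ratios were -0.0058 and 0.39, or 1.14-fold as read, with no rise on array 1. The probes differed by 0.55. With an offset of 16 the first probe read 1.13 and Elk3 met the 2-fold rule, beside 6.87% of all genes higher in that setting. With the scanner software's ratios it read 3.01, beside 8.92% of all genes, while the second probe read 0.73. Elk4 was not measured, and Elk1 had no probe matched by accession. Srf, the partner of the ternary complex factors, was at -0.32 ± 0.14.

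**Figure D3:**
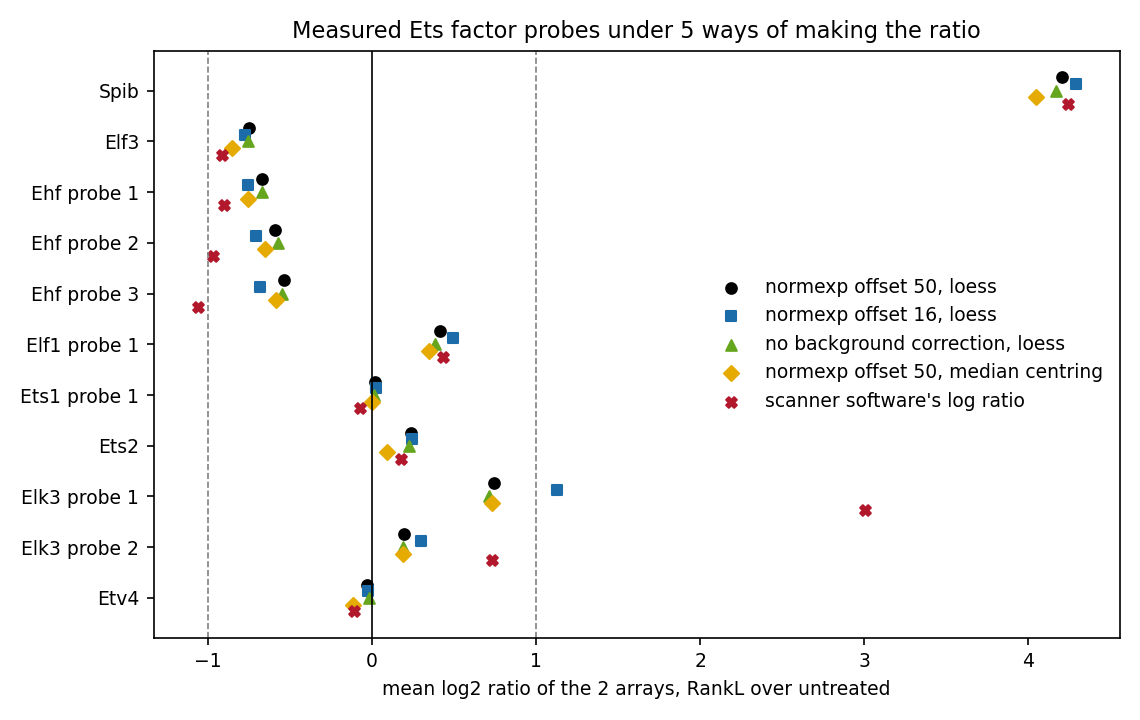
Mean log2 ratio of the 2 arrays (horizontal axis) for the 11 measured probes (rows) under 5 ways of making the ratio, marked by symbol and colour, with dashed lines at 2-fold. Spib stays between 4.05 and 4.29, while the first Elk3 probe runs from 0.72 to 3.01.

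In the PEA3 branch, Etv4 was read by a single probe, at 301.5 with RankL and 361.5 without on array 1, and at 352 and 351 on array 2. The ratio was 0.28 on array 1 and -0.34 on array 2, so its sign turned with the dyes, and the mean was -0.031 ± 0.44. That SD is above the 90th percentile of 0.41 for the 500 genes closest in signal. Etv5 was not well above background in either RNA by its 2 probes, which had signals of 37 and 120.0, and 33 and 123, on array 1, and of 119.5 and 40.5, and 130.0 and 29, on array 2. Etv1 was not measured.

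Other genes that respond to ERK signalling were read beside Etv4 and Etv5. Of 12 such genes, Dusp4, Dusp5, Dusp6, Spry1, Spry2, Spry4, Spred1, Spred2, Il17rd, Phlda1, Fosl1 and Ccnd1, 10 had a probe and 6 were measured. In the main setting 0 were higher and 0 lower by the 2-fold rule, beside 5.47% and 2.5% of all genes, and 4 of the 6 lay below 0, with a median of -0.76. The lowest were Dusp6, a phosphatase of ERK, at -0.99 ± 0.33, and Spry2, a feedback inhibitor of receptor tyrosine kinases, at -0.92 ± 0.18. Highest were Dusp4 at 0.40 ± 0.30 and Spry1 at 0.15 ± 0.11. Dusp6 met the rule with an offset of 16 (-1.03), with median centring (-1.09), with the software's ratios (-1.13) and on array 2 alone (-1.23). Spry2 met it with an offset of 16 (-1.14), with the software's ratios (-1.61) and on array 1 alone (-1.05). Il17rd met it with the software's ratios (-1.33). The shares of all genes lower in these settings were 3.32% with an offset of 16, 3.02% with median centring, 6.07% with the software's ratios, 2.58% on array 2 alone and 2.49% on array 1 alone. Etv4 had opposite signs on the arrays, while Dusp6, Spry2, Phlda1 and Il17rd read below 0 on both, and Dusp4 and Spry1 above 0 on both.

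Across the whole Ets family of 26 genes, 25 had a probe and 14 were measured. Spib was the only one at least 2-fold higher, 1 of 14 beside 5.47% of all genes, and 0 were lower, beside 2.5%. The median was 0.027. Besides the members, the highest were Etv6, a repressor, at 0.36 ± 0.13 by its brighter probe and -0.0062 by its second, and Elf2. The lowest were Spdef and Gabpa, a factor of nuclear genes for mitochondria, at -0.13 ± 0.023 by its brightest probe, with -0.0036 by a second measured probe. The family's other 2 measured genes, Fev and Erf, were at 0.039 ± 0.10 and -0.0026 ± 0.071.

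**Figure D4:**
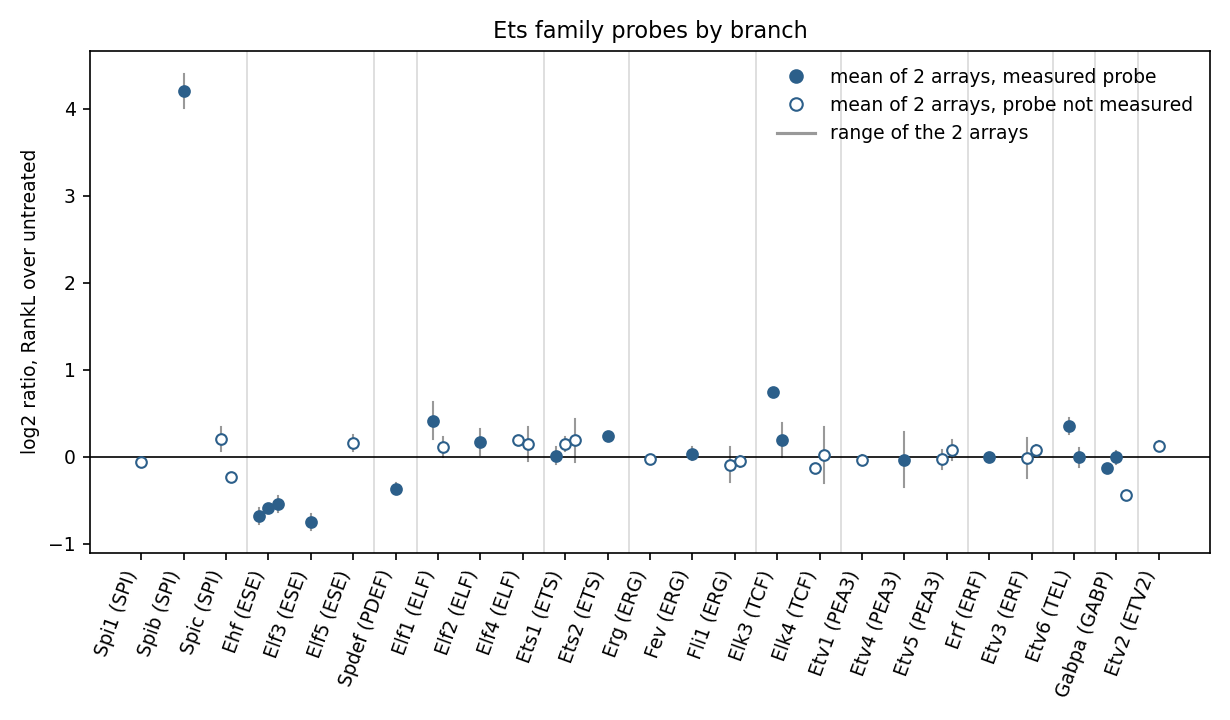
Log2 ratio of RankL over untreated (vertical axis) for every probe of the 25 Ets family genes with a probe, ordered by branch (in brackets), with the mean of the 2 arrays as a point, open where the probe was not measured, and the range of the arrays as a bar. Spib is the only gene beyond 1, Elf3 and Ehf are the lowest measured ones, and Elk3, dim in untreated RNA, is the next highest as read.

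Partners that bind DNA with Ets factors were read from a list of 7 genes, of which 5 were measured. Irf8, which pairs with Spi1 and Spib on composite sites in immune cells, was lower by the 2-fold rule at -1.43 ± 0.13, with -1.52 on array 1 and -1.34 on array 2. A second Irf8 probe read -0.72. The gene met the rule in all 9 alternatives, from -1.66 to -1.08, and the probe filters left its ratio as it was. Irf4, the related partner, and Pax5 were not measured. Runx1, Tcf3 and Jun, partners of other Ets factors, were at 0.060 ± 0.24, 0.32 ± 0.094 and 0.069 ± 0.054. The Tcf3 value is that of its brighter probe, and a second measured probe read -0.09. Thus 1 of 5 measured partners was lower, beside 2.5% of all genes, and 0 were higher.

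Spib was also placed among the genes that rose with it. All 12 genes of a list of M cell genes set beside Spib were higher, beside 5.47% of all genes. Whether any of them depends on Spib was not tested. The list was chosen with earlier results of these data known and is not independent evidence of direction. Of the 12, 8 were well above background in both RNAs on both arrays, with ratios from 2.58 to 5.70 and a median of 4.29. In untreated RNA 2 of the others, Ccl20 and Tnfrsf11b, were so on 1 array, and 2, Sox8 and Scg5, on neither. Spib at 4.21 lay between Tnfaip2 (3.71 ± 0.21) and Ccl9 (4.88 ± 0.11), below the receptor gene Gp2 (5.15 ± 0.043). Sox8, an M cell transcription factor, was at least 5.22-fold higher by its brighter probe, at 2.45 on the log2 scale. Its second measured probe read lower, and the median over its measured probes was 1.97. By distance in the plane of the 2 arrays' ratios, the closest genes to Spib were Itih5 (0.19), Serpina1d (0.19), Plb1 (0.28) and Gpc1 (0.33), whose mean ratios ran from 3.98 to 4.29. This likeness rests on 2 readings of 1 RNA pair. Serpina1d has near-identical copies, so its value is uncertain for a single gene.

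**Figure D5:**
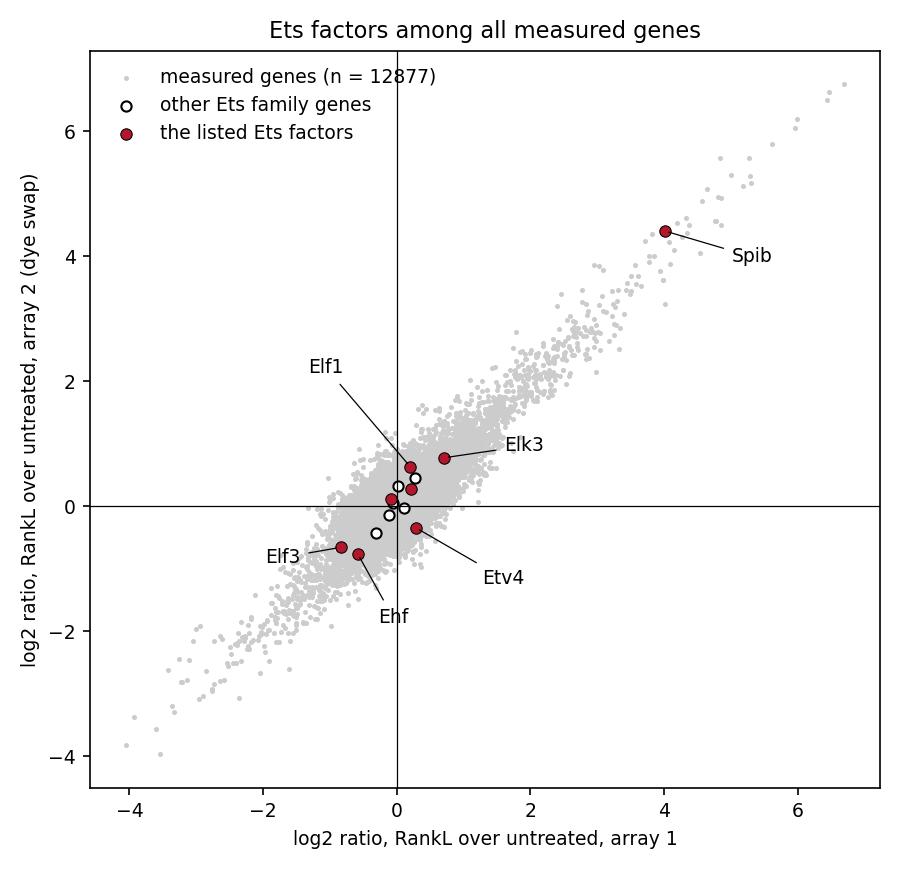
Log2 ratio of RankL over untreated on array 1 (horizontal axis) against array 2 (vertical axis) for the 12877 measured genes in grey, the 8 measured members in red and the 6 other measured Ets family genes as open circles. Spib lies far along the diagonal at 4.01 and 4.40, Elf3 and Ehf lie below 0 on both axes, and Etv4 lies off the diagonal.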

How the data were processed

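Total RNA was labelled with Cy3 or Cy5, per the labels' protocols, and hybridised to 2 arrays. The authors deposited scanner files with intensity values, the median brightness of each spot and of its local background, not normalized, per the file headers. The headers give Agilent Feature Extraction 10.5.1.1 as the software, and 8.5.1.1 is the version in the submitters' processing notes. That software also wrote a deposited log10 ratio (red over green) per spot after its own background subtraction and dye normalization. The authors' series matrix holds the same log10 ratios as RankL over untreated, to within 5.0e-06, with column medians of 0. Other deposited columns used are flags of 0 or 1, per the file headers.

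Background was corrected with normexp (offset 50) and ratios were loess-normalized within arrays in limma 3.58.1 under R 4.3.3, with control spots at weight 0 and outlier spots left out (170 and 164 non-control spots). The normexp offset compresses ratios, most of all for dim probes. Signals per RNA were then Aquantile-normalized. No spot was saturated. For repeated probes, a share of at least 0.5 of the spots had to be well above background. Of 41174 probes 16458 were measured (40.0%), and 26918 were named by RefSeq accession (GRCm38.p6). A gene took its brightest measured probe. The SD between spots of the 115 measured probes printed 10 times had a median of 0.14 and 0.15, and the SD between arrays over genes one of 0.15. "At least" folds set the bright signal against the dim probe's own, or against the lowest signal that was well above background where that is higher. Both arrays lay on 1 slide, so slide and scan could not be tested as batches. The size rule was tested on simulated data. The ratios put in lay beyond 2-fold, on bright genes above background in both RNAs. Changes of dim probes and ratios near the cut were not covered. Alternatives were another offset, no background correction, median centring, the software's ratios, other probe filters and choices, each array alone and a 1.5-fold rule. Named genes were the 10 members, other Ets genes (Spdef, Gabpa, and the 2 highest and 2 lowest) and fixed lists of partners, ERK-responsive and M cell genes. Members and lists were chosen with earlier results of these data known. Fev, Erf, Ccl9, Ccl20, Tnfrsf11b, Scg5, Marcksl1, Aif1, Phlda1 and Il17rd were named after their values were seen. Probe and protein sequences were not used here, and neither were coordinates of the probes. A marker of the B cell list is not reported here, and its counts and sums leave it out.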

Additional observations from a re-analysis of the deposited data

How the results depend on the processing

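Spib met the 2-fold rule in all 9 alternatives that give it a ratio, from 4.01 to 4.40, the values of the single arrays. Those of probe filter or probe choice could not change its 1 probe. The median of the measured members, 0.13 in the main setting, was 0.015 with probes above background in both RNAs, -0.0063 with dim probes included, 0.046 with median centring, 0.053 with the scanner software's ratios, and 0.19 to 0.20 on single arrays, so its sign turned in 1 alternative. Members and Ets family genes called higher numbered 2 in place of 1 with an offset of 16, with the software's ratios and with a 1.5-fold rule, the added gene being Elk3, and 2 in place of 0 were lower with the 1.5-fold rule (Elf3 and Ehf). Over all genes, 704 were higher and 322 lower, against 1148 and 781 with the software's ratios and 1395 and 934 with the 1.5-fold rule, and 730 to 733 and 330 to 368 on single arrays. Median centring moved the median of all genes to -0.059. Signal over background limits Spi1, Etv5, Elk3 and the dim Ets1 and Elf1 probes, and the cause of each shift was not tested. No paired analysis was possible because both arrays hold 1 RNA pair.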
